A study of Mus musculus with 4 samples.

Results

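The genes described here encode the heat-shock chaperones and the effectors of the unfolded-protein and integrated stress responses. They were chosen by name: 17 genes of the cytosolic heat-shock system, 2 mitochondrial chaperonin genes, 17 genes of the endoplasmic reticulum (ER) and its unfolded-protein response, and 7 genes of the integrated stress response. The choice was made with earlier results of these data known, so shares among them describe these genes and test nothing. All 43 reached 1 FPKM in at least 1 library, a level reached by 13458 genes in all. FPKM, the unit of the authors' tables, scales fragment counts by transcript length and library size, so levels can be compared between genes.

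The RNA came from hippocampal neurons of CD1 mouse pups (an outbred strain) taken on postnatal day 0 and kept for 11 days in vitro. Every culture was infected with a lentivirus on day 4. The vector cultures received the pLKO.1 vector, and the shKdm6b cultures a lentivirus expressing 1 short hairpin RNA against Kdm6b, which encodes a histone demethylase. On day 11 a culture of each kind was left untreated, and another was given bicuculline (50, in the unit the labels write as µm) and 2.5 mM 4-aminopyridine for 3 h (Bic/4AP). The former is an antagonist of GABA-A receptors and the latter an inhibitor of potassium channels, so that the network fires more. Each of the 4 conditions is 1 polyA-enriched library. No difference below could therefore be tested, and each describes 1 culture against 1 other. A vector without a hairpin was the control, and only 1 hairpin was used, so an effect of losing Kdm6b cannot be told apart from an effect of the hairpin itself. In bulk RNA, fewer cells of a type and less RNA per cell cannot be told apart either.

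Values are given throughout for the vector cultures, untreated and then with Bic/4AP, followed by the shKdm6b cultures, untreated and then with Bic/4AP. Kdm6b, the target of the hairpin, stood at 6.74, 13.2, 2.73 and 4.83 FPKM. The activity-dependent genes Fos, Npas4 and Arc were each more than 2-fold higher with Bic/4AP in both kinds of culture, Fos at 12.6, 771, 15.3 and 765 FPKM. All 10 neuron markers were detected, with a summed level of 2234, 2122, 1845 and 2019 FPKM. With Bic/4AP, 7 of the 10 were lower in vector cultures (median difference -0.25 in log2(FPKM + 1)) and 6 in shKdm6b cultures (median -0.13). Of all 13458 genes, 7999 and 8774 were lower, with medians of -0.07 and -0.08, so most genes were lower too. Nefl, at 258, 530, 233 and 586 FPKM, was higher with Bic/4AP and had the largest difference of the neuron markers (1.04 and 1.33). It is part of their sum, which therefore does not show how the other neuron markers moved. The part of the marker differences in the responses below was not tested. Astrocyte RNA was abundant too: all 8 astrocyte markers were detected, at 2900, 3109, 2790 and 3137 FPKM in sum, with Gfap at 1514 FPKM or more in every library. Microglial markers (8 of 9 detected) summed to 50.5, 47.9, 21.8 and 22.4 FPKM, and oligodendrocyte markers (7 of 10) to 139, 142, 125 and 120 FPKM. Fibroblast and meningeal markers (5 of 5) summed to 21.7, 20.9, 16.1 and 19.1 FPKM. Endothelial and mural markers (3 of 9) summed to 69.4, 79.4, 62.6 and 56.6 FPKM, most of it Acta2, a mural gene. Of the endothelial genes, Kdr was at 3.4, 3.5, 5.5 and 4.8 FPKM. Pecam1, Cdh5, Cldn5, Flt1 and Tek stayed below 1 FPKM in every library. Which cells carried the stress transcripts was not measured. The tables give no read totals. From the width of the authors' bounds, the relative depth of the libraries was 1, 0.930, 1.04 and 0.995, and the members' upper bounds lay 0.518% to 24.8% above their values.

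Cells answer misfolded protein by compartment. In the cytosol, heat-shock factor 1 is released from chaperones, binds heat-shock elements in promoters and switches on Hsp70, its Hsp40 partners and small heat-shock proteins. In the ER, the sensors IRE1, PERK and ATF6 act through XBP1, ATF4 and cleaved ATF6 to raise chaperones such as BiP. PERK shares its output with other kinases of the initiation factor eIF2, and this common branch, the integrated stress response, slows translation while favouring ATF4, CHOP and the phosphatase subunit GADD34. Many neurons are known for a high threshold of the heat-shock response and for abundant constitutive Hsc70.

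The promoters show how these branches are written in DNA. Windows from 250 bases before to 50 after a RefSeq start site (GRCm38.p6) were available for 35 of the 43 members, and for 32851 start sites in all. Hsp90aa1, Hsp90ab1, Hspa8, Hsf1, Cryab, Hyou1, Manf and Atf6 had none in the table. Motifs were searched on both strands. The shares below count windows, whereas a member is named if any of its windows holds the motif. A gene with several start sites has several windows, so shares and member counts are not the same measure. The paired heat-shock element GAANNTTC was in 7.86% of all windows and in those of Hspa1a, Hspa1b, Hspb1, Bag3, Hspb8, Hsph1, Hspd1, Hspe1 and Asns. The opposite pairing, TTCNNGAA, was in 8.52% of all windows and in those of Dnajb4, Hsph1, Hspd1, Hspe1 and Eif2ak3. The element of 3 units that joins both, GAANNTTCNNGAA, was in 0.603% of windows and, among members, in Hspd1, Hspe1 and Hsph1. The following stretches carry these letters in capitals. They are printed because the Hsp70 pair, Hspb1 and Dnajb4 were about 2-fold or more higher with Bic/4AP, whereas the mitochondrial Hspe1, with the element of 3 units, hardly differed. Hspd1, which has the same element, differed by 0.07 in vector and 0.00 in shKdm6b cultures, in log2(FPKM + 1). Hsph1, whose element of 3 units begins after the start site and is not shown, differed by 0.46 and 0.37.
Hspa1a, chr17:34972241-34972272, minus strand, bases -116 to -85 from the start site: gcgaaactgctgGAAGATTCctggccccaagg
Hspa1b, chr17:34959323-34959354, minus strand, bases -116 to -85: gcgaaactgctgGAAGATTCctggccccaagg
Hspb1, chr5:135887790-135887821, plus strand, bases -129 to -98: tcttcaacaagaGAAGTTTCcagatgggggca
Hspb1, chr5:135887810-135887841, plus strand, bases -109 to -78: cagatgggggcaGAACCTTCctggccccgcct
Dnajb4, chr3:152193846-152193871, minus strand, bases -26 to -1: gttcgttcgctgTTCTAGAAagtaca
Hspe1, chr1:55088052-55088088, plus strand, bases -96 to -60: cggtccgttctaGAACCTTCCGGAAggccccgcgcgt
The windows of Hspa1a and Hspa1b were identical at 296 of 300 bases (98.7%). Hspd1 and Hspe1 are divergent neighbours, and the same element lies in the windows of both. For Bag3 and Hspb8 the match begins after the start site, and its sequence is not shown.

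The ER stress element, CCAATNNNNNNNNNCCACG, was in 0.119% of all windows and in those of 6 members, each an ER chaperone or folding gene. It is shown in capitals, as read on the gene's strand, for all 6. On the log2 scale used below, only Hspa5 of these differed by more than 0.5 with Bic/4AP, and only in vector cultures (0.65). In shKdm6b cultures Hspa5 differed by 0.4995.
Hspa5, chr2:34772013-34772055, plus strand, bases -77 to -35: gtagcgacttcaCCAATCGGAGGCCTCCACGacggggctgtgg
Hsp90b1, chr10:86705521-86705563, minus strand, bases -119 to -77: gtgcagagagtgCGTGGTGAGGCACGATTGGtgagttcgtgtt
Calr, chr8:84847063-84847105, minus strand, bases -174 to -132: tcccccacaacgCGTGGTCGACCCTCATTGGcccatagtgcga
Canx, chr11:50325788-50325830, minus strand, bases -157 to -115: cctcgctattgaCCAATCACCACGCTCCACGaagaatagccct
Pdia6, chr12:17266479-17266521, plus strand, bases -110 to -68: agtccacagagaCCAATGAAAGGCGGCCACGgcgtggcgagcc
Creld2, chr15:88819508-88819550, plus strand, bases -138 to -96: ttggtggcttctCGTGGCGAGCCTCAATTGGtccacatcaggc
Hsp90b1 holds a further match, which begins at base -212. The XBP1 site TGACGTGG was in 0.676% of windows and in those of no member.

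The ATF4 site TGATGNAA was in 3.97% of windows and, among members, in those of Asns, Chac1, Herpud1 and Trib3. The CRE, TGACGTCA, the letters bound by the activity-regulated factor CREB, was in 1.79% of windows and in Ppp1r15a alone among members. The CArG box of serum response factor was in 1.63% and, among members, in Herpud1. A match describes letters only and shows neither binding nor its absence. The CRE of Ppp1r15a, the member of the integrated stress response with the largest difference, and the ATF4 sites of Asns, which was slightly lower with Bic/4AP, and Chac1, which differed by 0.09 in vector and 0.46 in shKdm6b cultures, are in capitals. The match of Trib3, which differed by 0.60 and 0.73, begins after the start site and is not shown.
Ppp1r15a, chr7:45526269-45526292, minus strand, bases -24 to -1: ccgcctctccggTGACGTCAgcac
Asns, chr6:7693213-7693244, minus strand, bases -35 to -4: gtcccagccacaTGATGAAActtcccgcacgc
Chac1, chr2:119351037-119351068, plus strand, bases -205 to -174: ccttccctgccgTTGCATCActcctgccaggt
The windows of Dnajb1, Dnajb9, Ddit3 and Atf4, genes that were close to or above 2-fold higher, held none of these motifs. Nor did that of Sesn2, which differed by 0.87 and 0.69.

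The constitutive Hsp70, Hspa8, was the highest member in every library, at 1228, 1777, 1043 and 1578 FPKM, and the pseudokinase gene Trib3 the lowest, at 0.763, 1.67, 0.709 and 1.84 FPKM. The members together made up 1.04%, 1.35%, 1.03% and 1.30% of all FPKM. Cytosolic members supplied most of it, with summed levels of 3229, 4291, 3220 and 4217 FPKM, against 1103, 1377, 1159 and 1368 FPKM for ER members and 264, 481, 201 and 409 FPKM for those of the integrated stress response.

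**Figure D1:**
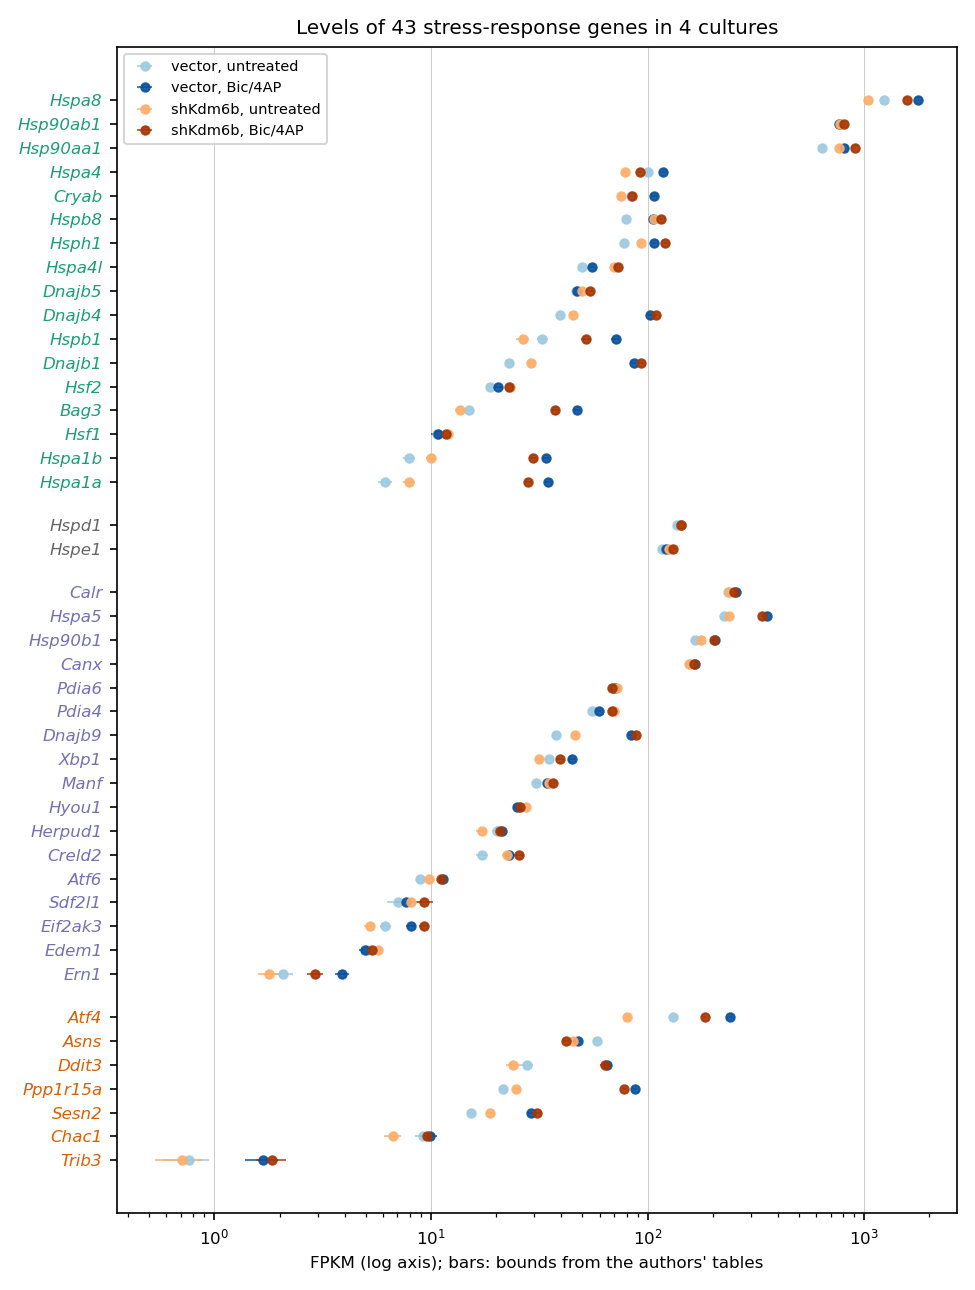
FPKM of the 43 genes (horizontal, log axis) in the 4 libraries, with the authors' bounds as bars; gene names are coloured green for cytosolic, grey for mitochondrial, purple for ER and orange for integrated stress response genes, and ordered by the vector untreated level within each. The points of the Hsp70 pair, Dnajb1, Dnajb4, Bag3, Hspb1, Dnajb9, Ppp1r15a and Ddit3 separate into an untreated and a Bic/4AP group, while Hsp90ab1, Hsf1, Hspd1, Canx and Pdia6 lie nearly on top of each other.

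The next question was which of these genes stood apart after 3 h of Bic/4AP. Differences are in log2(FPKM + 1), which understates those of low genes, and a difference of 1 or more is called 2-fold. In the vector cultures, 9 of 43 members were 2-fold higher (Hspa1a, Hspa1b, Dnajb1, Dnajb4, Bag3, Hspb1, Dnajb9, Ddit3 and Ppp1r15a), where 2.18% of all genes were. None was 2-fold lower, as were 0.267% of all genes. In the shKdm6b cultures 8 members were 2-fold higher, against 2.06% of all genes, and none was 2-fold lower, against 0.156%. Those 8 held 7 of the 9 and Atf4. Hspb1 (0.94) and Dnajb9 (0.93) lay just under 1 there, and Atf4 (0.88) just under it in vector cultures. The median difference of the members was 0.34 and 0.22 in vector and shKdm6b cultures, where that of all genes was -0.07 and -0.08.

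By class, the median was 0.41 and 0.26 for cytosolic members (6 and 5 of 17 2-fold higher), 0.16 and 0.18 for ER members (1 and 0 of 17), and 0.87 and 0.73 for the integrated stress response (2 and 3 of 7). The last pair depends on the pseudocount and the filter: it was 0.91 and 1.19 at a pseudocount of 0.1, and 0.87 and 0.94 among genes of at least 5 FPKM, which turns its order. By the authors' bounds, which cover counting and read assignment within a library and not the spread between cultures, 31 members were higher with bounds apart in vector cultures, against 21.5% of all genes, and 1 was lower, against 36.4%. In shKdm6b cultures 32 were higher, against 16.9%, and 2 were lower, against 37.3%.

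**Figure D2:**
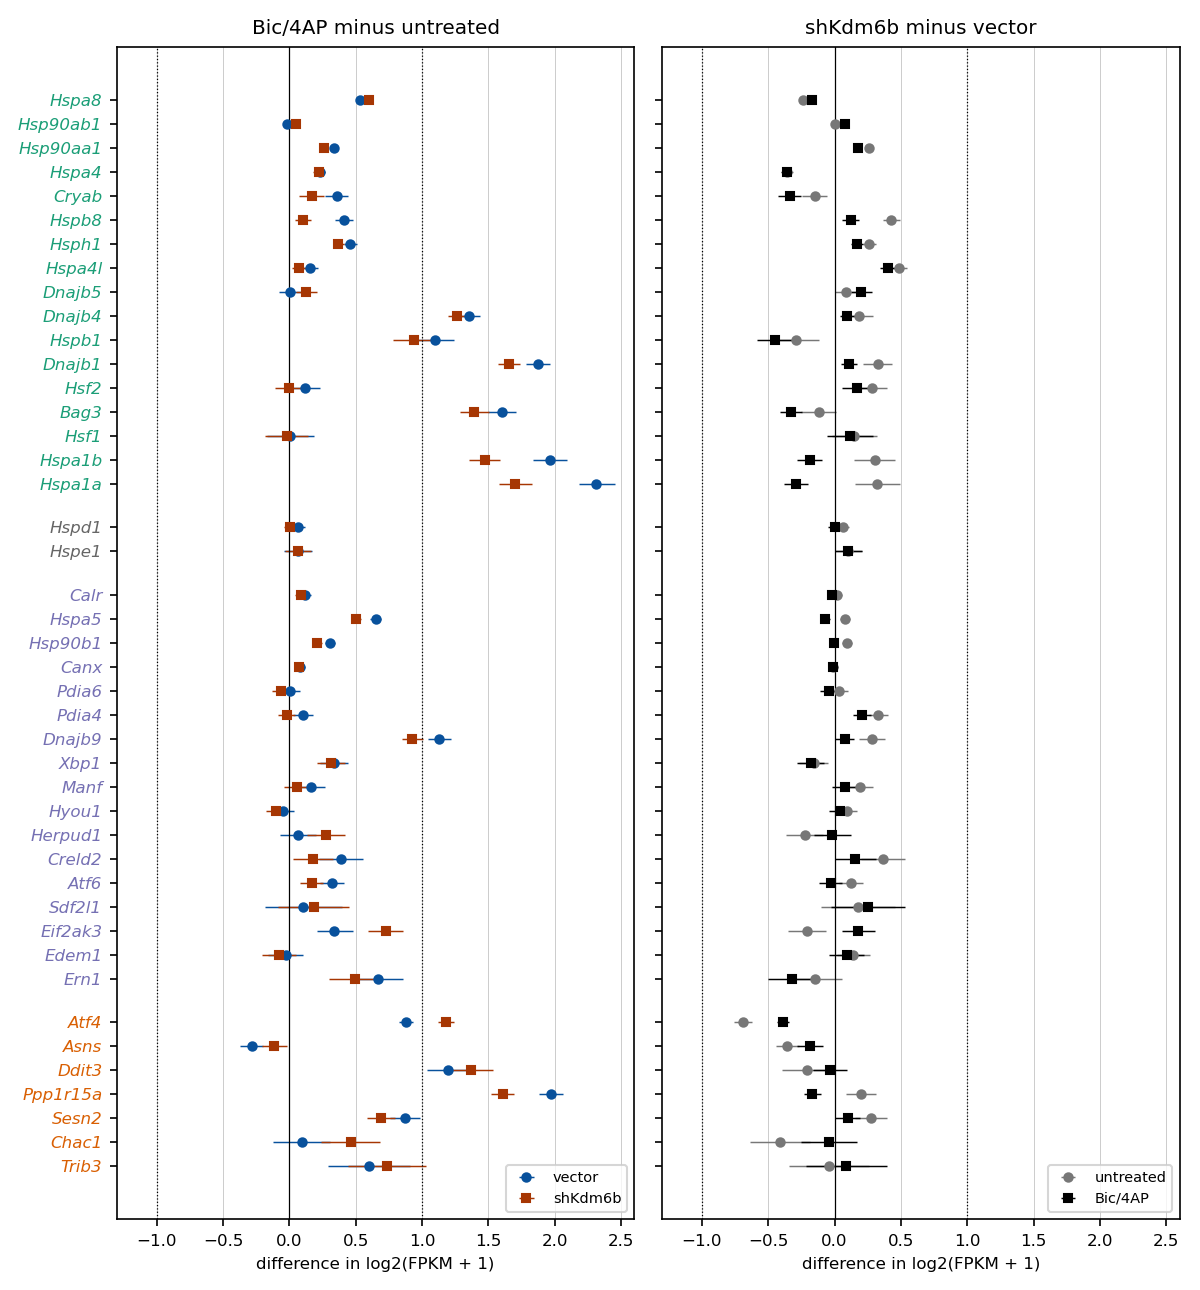
Differences in log2(FPKM + 1) for each member, Bic/4AP minus untreated (left) and shKdm6b minus vector (right); bars run between the differences obtained from opposite bounds of the authors, dotted lines mark 2-fold, and name colours are as in the plot of levels. Differences reach 2.31 on the left, and all lie within the dotted lines on the right.

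The inducible Hsp70 genes Hspa1a and Hspa1b, which encode nearly the same stress-inducible chaperone, were both 2-fold higher in both kinds of culture, and Hspa1a had the largest difference of all members. They lie at chr17:35106304-35109101 and chr17:35093374-35096183 in build mm9. Hspa1a stood at 6.16, 34.6, 7.94 and 28.1 FPKM, a difference of 2.31 in vector and 1.70 in shKdm6b cultures. For Hspa1b the levels were 7.94, 33.9, 10.03 and 29.6 FPKM, with differences of 1.96 and 1.47. Both Bic/4AP libraries were far above both untreated ones. Reads of such near-identical copies can be split between them in ways the tables do not show, so the sum is the safer value: 14.1, 68.5, 18.0 and 57.7 FPKM, 4.86 times as high with Bic/4AP in vector and 3.21 times in shKdm6b cultures. Even then the pair stayed far below the constitutive Hspa8.

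Hspa8 encodes Hsc70, which folds new proteins and uncoats clathrin vesicles. Its relative difference was modest, 0.53 in vector and 0.60 in shKdm6b cultures. Because its level was so high, it supplied 51.7% and 53.7% of the FPKM gained by the cytosolic members, that is 549 and 535 FPKM. A predicted gene, LOC624853, overlaps it by 597 bp, and its own level was 105, 90.4, 51.6 and 109 FPKM. Whether the counting used strand is not given in the sources used here, so reads in that stretch could belong to either.

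The Hsp40 and BAG cochaperones split sharply. Dnajb1, the Hsp40 that delivers clients to Hsp70, was at 22.9, 86.2, 28.8 and 93.0 FPKM, with differences of 1.87 and 1.65. Dnajb4, a close relative, was at 39.6, 103, 45.2 and 110 FPKM (differences 1.35 and 1.26). Bag3, which links Hsp70 to selective autophagy, was at 14.9, 47.2, 13.7 and 37.5 FPKM (1.60 and 1.39). In these 3 genes the lowest Bic/4AP library was more than 2 times the highest untreated one. Dnajb5, a further Hsp40, was nearly level at 47.0, 47.2, 49.8 and 54.5 FPKM.

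Among small heat-shock proteins, which hold unfolding proteins in a refoldable state, Hspb1 stood out at 32.7, 71.1, 26.5 and 51.7 FPKM. Its difference was 1.10 in vector and 0.94 in shKdm6b cultures. Cryab (83.4, 107, 75.1 and 84.4 FPKM) and Hspb8 (79.2, 106, 107 and 115 FPKM), the partner of Bag3, differed less, by 0.36 and 0.41 in vector and 0.17 and 0.10 in shKdm6b cultures. The treated and untreated levels of Cryab barely separated, and those of Hspb8 overlapped, its untreated shKdm6b level being above its treated vector level.

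The Hsp110 genes, nucleotide exchange factors of Hsp70, and the Hsp90 genes were already abundant. Hsph1 was at 77.8, 107, 93.3 and 121 FPKM (differences 0.46 and 0.37), Hspa4 at 101, 118, 78.6 and 91.9 FPKM (0.23 and 0.22), and Hspa4l at 49.5, 55.3, 69.7 and 73.2 FPKM (0.16 and 0.07). The inducible Hsp90aa1 was at 638, 805, 761 and 911 FPKM (0.34 and 0.26). Its constitutive relative Hsp90ab1 was level, at 773, 762, 776 and 804 FPKM (-0.02 and 0.05). The transcription factors of the response were level as well, Hsf1 at 10.7, 10.7, 11.9 and 11.7 FPKM and Hsf2 at 18.7, 20.4, 23.0 and 23.0 FPKM, as was the mitochondrial chaperonin, Hspd1 (the Hsp60 barrel) at 137, 143, 143 and 143 FPKM and Hspe1 (its lid) at 117, 122, 126 and 131 FPKM.

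**Figure D3:**
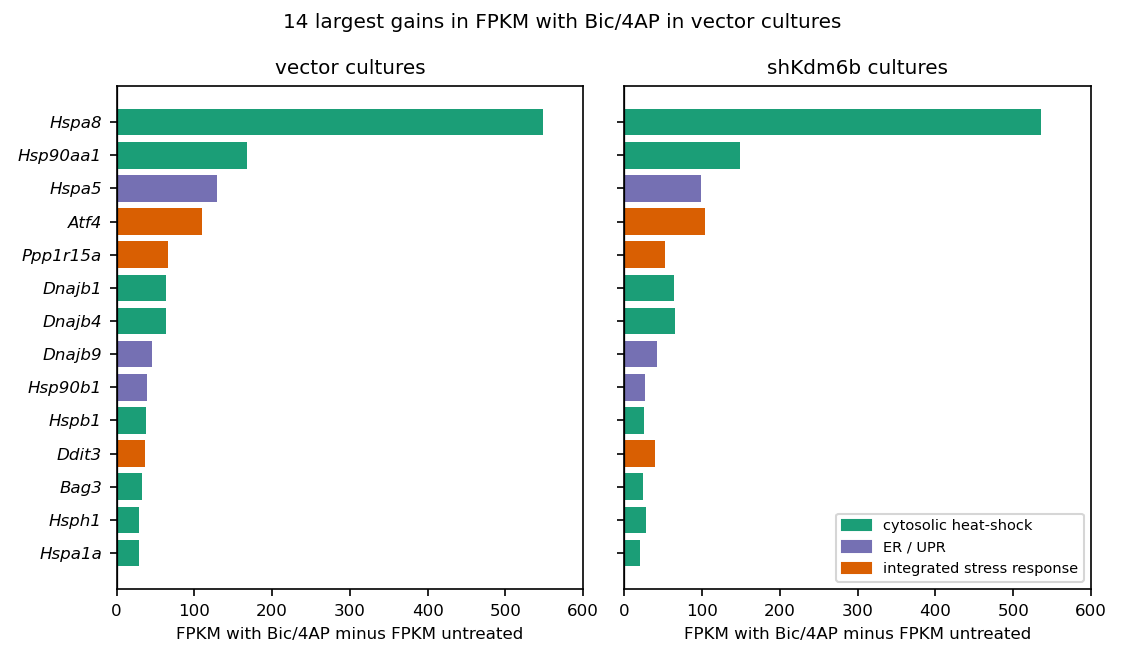
FPKM with Bic/4AP minus FPKM untreated for the 14 members with the largest gain in vector cultures (left), and the same genes in shKdm6b cultures (right); bars start at 0 and are coloured by class. Hspa8 has the longest bar in both panels (549 and 535 FPKM), and Hspa1a, with the largest relative difference, the shortest of the 14 in both.

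The ER branch was narrower. Hspa5, which encodes BiP, the ER Hsp70, was at 226, 355, 238 and 337 FPKM, a difference of 0.65 in vector and 0.50 in shKdm6b cultures, and gave 47.1% and 47.4% of the FPKM gained by ER members. Its cochaperone gene Dnajb9 (ERdj4) was at 37.7, 83.8, 46.1 and 88.5 FPKM, with differences of 1.13 and 0.93, the largest of the class in both. Hsp90b1 (GRP94) was at 165, 204, 176 and 203 FPKM (0.30 and 0.20). In these 3 genes both treated libraries were above both untreated ones.

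The other folding genes differed little. The lectin chaperones Calr (234, 255, 237 and 252 FPKM) and Canx (157, 166, 156 and 165 FPKM), the disulfide isomerase gene Pdia6 (70.3, 70.7, 71.9 and 68.8 FPKM) and the large ER chaperone Hyou1 (25.7, 24.9, 27.5 and 25.6 FPKM) differed by at most 0.12 in either direction. Pdia4, a further isomerase, was at 55.3, 59.4, 69.7 and 68.8 FPKM, and Manf, a secreted ER-stress protein, at 30.7, 34.5, 35.2 and 36.6 FPKM. Creld2 was at 17.2, 22.9, 22.5 and 25.5 FPKM (0.39 and 0.18) and the BiP cofactor gene Sdf2l1 at 7.07, 7.69, 8.11 and 9.33 FPKM, with bounds that overlapped. Of the ER-associated degradation genes, Herpud1 was at 20.2, 21.2, 17.1 and 20.9 FPKM and Edem1 at 5.06, 4.94, 5.68 and 5.33 FPKM. The loci of Pdia4 and Pdia6 overlap other genes by 77 and 50 bp.

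All 4 genes for ER sensors and their factors were higher with Bic/4AP in both kinds of culture, by less than 2-fold. Of all 13458 genes, 5459 were higher in vector and 4683 in shKdm6b cultures. Ern1, which encodes IRE1, was at 2.09, 3.90, 1.78 and 2.93 FPKM (0.67 and 0.50). Eif2ak3, which encodes PERK, was at 6.16, 8.06, 5.204 and 9.26 FPKM (0.34 and 0.73). Xbp1 was at 35.1, 44.6, 31.4 and 39.3 FPKM (0.34 and 0.31) and Atf6 at 8.94, 11.4, 9.84 and 11.2 FPKM (0.32 and 0.17). Gene-level FPKM does not show the splicing of Xbp1 or the cleavage of ATF6, by which these factors are activated.

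In the integrated stress response, Ppp1r15a, which encodes GADD34, the subunit that reverses eIF2 phosphorylation, had the largest difference. It was at 21.5, 87.3, 24.8 and 77.6 FPKM, 1.97 in vector and 1.61 in shKdm6b cultures. The gene of the factor CHOP, Ddit3, was at 27.7, 64.8, 23.9 and 63.4 FPKM (1.20 and 1.37). Atf4, the central factor, was at 131, 241, 80.5 and 184 FPKM (0.88 and 1.18) and gave 50.7% and 49.6% of the FPKM gained by this class. For all 3 genes the treated libraries were above the untreated ones. The locus of Ddit3 overlaps Mars by 68 bp, whose level was 25.0, 21.7, 21.4 and 20.0 FPKM.

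Known targets of ATF4 and CHOP differed among themselves. Sesn2, a stress-induced inhibitor of mTORC1, was at 15.4, 28.9, 18.8 and 31.0 FPKM (0.87 and 0.69), and Trib3, an inhibitor of CHOP, differed by 0.60 and 0.73 at levels under 2 FPKM. Chac1, a glutathione-degrading enzyme, was at 9.20, 9.87, 6.67 and 9.56 FPKM (0.09 and 0.46). Asns, asparagine synthetase and a classic amino acid response gene, was lower with Bic/4AP, at 58.5, 47.8, 45.5 and 41.9 FPKM (-0.28 and -0.11), the lowest difference of the 43 genes in both comparisons.

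Related genes outside the 43 were set beside them. Of all genes, 2.18% were 2-fold higher and 0.267% 2-fold lower with Bic/4AP in vector cultures, and 2.06% and 0.156% in shKdm6b cultures. At such shares, lists this short would hold few such genes or none. Of 37 other cytosolic chaperones and cochaperones with enough signal (41 listed), none was 2-fold apart with Bic/4AP, and the medians were -0.04 and -0.01. The largest in vector cultures were Hspa14, a ribosome-associated Hsp70 (0.67 and 0.53), Hspa12a (-0.44 and -0.33) and Hspa2 (0.42 and 0.15). The cytosolic chaperonin TRiC (7 of 9 subunits) had medians of 0.06 and -0.01, and 10 mitochondrial chaperones and proteases had medians of -0.05 and -0.11, with none 2-fold apart. Of 44 other genes for ER folding, translocation and degradation, none was 2-fold apart with Bic/4AP, with medians of 0.02 and -0.02, and the largest in vector cultures was Dnajc3, an inhibitor of PERK, at 0.58. Of 37 other genes of the integrated stress and amino acid response (40 listed), 2 were 2-fold higher in each kind of culture and the medians were 0.02 and 0.06. Atf3, a stress and activity-regulated repressor, was at 8.72, 157, 9.48 and 135 FPKM (4.02 and 3.70). Ppp1r15b, the constitutive relative of Ppp1r15a, differed by 1.02 and 0.85, and Cebpb by 0.53 and 1.43.

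The responses of the members in vector and shKdm6b cultures, which share no library, were alike in order. Over the 43 genes Pearson's r was 0.956 and Spearman's rho 0.906, against 0.862 and 0.8004 over all 13458 genes, and 38 members (88.4%) had the same sign, as did 81.3% of all genes. These are correlations across genes of the same 4 libraries, and genes are not independent replicates. The difference of the 2 responses, shKdm6b minus vector, was below 0 for 32 of 43 members, where it was below 0 for 54.9% of all genes. Its median was -0.08, and that of all genes -0.02. It was below 0 for 14 of 17 cytosolic and 14 of 17 ER members but above 0 for 5 of 7 of the integrated stress response. The extremes were Hspa1a (-0.61) and Hspa1b (-0.49), and on the other side Eif2ak3 (0.39) and Chac1 (0.37). With 1 library per condition, the spread that such differences have between cultures is unknown.

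**Figure D4:**
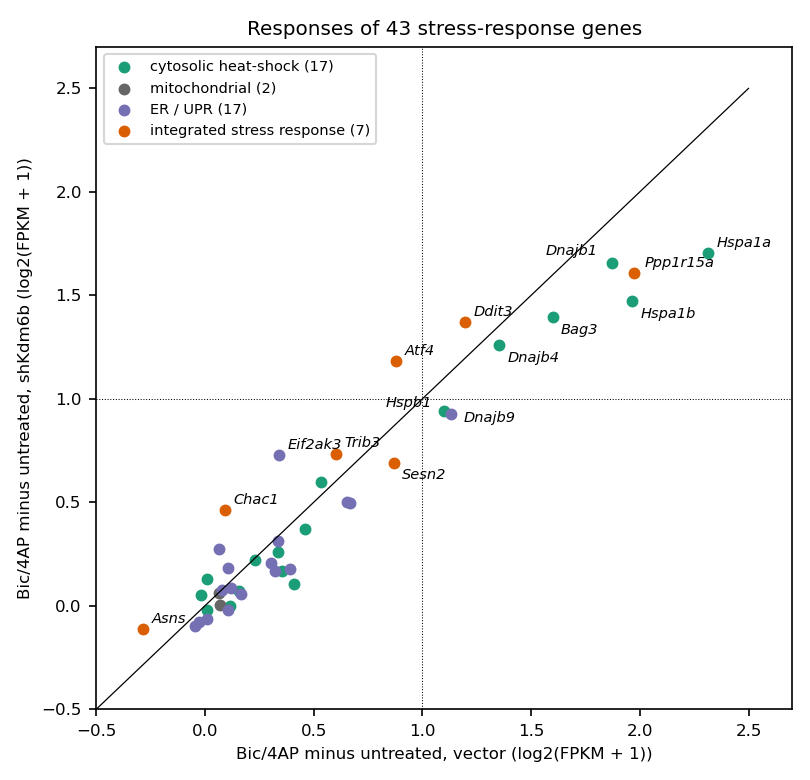
Bic/4AP minus untreated in log2(FPKM + 1) for vector (horizontal) and shKdm6b cultures (vertical), with a point per gene coloured by class; the line marks equal responses and the dotted lines 2-fold. Most cytosolic points lie below the line, among them Hspa1a at 2.31 and 1.70, while Atf4, Ddit3, Trib3, Chac1 and Eif2ak3 lie above it.

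The last question was whether the members differed between shKdm6b and vector cultures in the same state. None of the 43 was 2-fold apart. Untreated, 0.409% of all genes were 2-fold higher and 0.661% 2-fold lower with the hairpin, and with Bic/4AP 0.186% and 0.528%. A list of 43 genes would hold few such genes or none at these shares. The median of the members was 0.09 untreated (all genes 0.05) and 0.00 with Bic/4AP (all genes 0.03). By the authors' bounds, 23 members were higher untreated, against 32.8% of all genes, and 11 lower, against 22%. With Bic/4AP, 14 were higher, against 28.2%, and 13 lower, against 20.9%. These comparisons share libraries with the responses above and are not independent of them. Between each other the untreated and Bic/4AP differences share no library, and over the 43 members r was 0.644 and rho 0.615, against 0.723 and 0.747 over all genes.

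Members that lay on the same side in both states included Hspa4l, 0.48 higher untreated and 0.40 with Bic/4AP, and its relative Hspa4, at -0.36 in both. Hsp90aa1 was higher by 0.26 and 0.18 and Pdia4 by 0.33 and 0.21. Hspa8 was at -0.24 and -0.17, and Hspb1 at -0.29 and -0.45. Bag3, at -0.12 untreated, was at -0.33 with Bic/4AP, and Cryab at -0.15 and -0.34. Hspb8 was higher by 0.43 untreated and 0.12 with Bic/4AP. For 5 members (Hspa1a, Hspa1b, Hspa5, Ppp1r15a and Eif2ak3) the sign differed between the states with bounds apart in both, as it did for 1.69% of all genes.

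The largest hairpin difference of any member in the untreated comparison was that of Atf4, at -0.69. With Bic/4AP it was at -0.39, behind Hspb1 and Hspa4l. These are 0.617 and 0.763 times the vector level. Untreated, Chac1 (-0.41), Asns (-0.36) and Ddit3 (-0.21) were lower as well, whereas Sesn2 (0.28) and Ppp1r15a (0.20) were higher, and the class median was -0.21. With Bic/4AP it was -0.04. Of the 37 other genes of the integrated stress and amino acid response, 30 were below 0 and 7 above it in the untreated comparison, with a median of -0.20 against 0.05 for all genes, of which 41.2% were below 0. The 3 largest were Mthfd2, a mitochondrial folate enzyme (-0.90, at 8.33, 11.99, 4.02 and 8.91 FPKM), Cth, cystathionine gamma-lyase (0.78), and Cebpb (-0.68). With Bic/4AP, 27 were below 0, with a median of -0.05, against 43.6% of all genes and a median of 0.03.

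Among the 44 other ER genes, 1 was 2-fold higher in untreated shKdm6b cultures, Wfs1, an ER membrane protein, at 23.1, 23.2, 47.3 and 41.3 FPKM. Mbtps2, the site-2 protease gene whose product cleaves ATF6, was at 10.3, 8.50, 4.83 and 4.19 FPKM (-0.95 and -0.87), and Ero1l, the ER oxidase, at 12.9, 13.2, 7.11 and 9.32 FPKM (-0.78 and -0.47). Cell type markers moved with the hairpin too. In the untreated comparison all 10 neuron markers were lower, by 0.12 to 1.10, and 7 of 8 microglial markers were lower, 4 of them 2-fold. Of all genes, 41.2% were below 0 and 0.661% were 2-fold lower. Markers of other cells were lower in 7 of 7 cases for oligodendrocytes and 4 of 5 for fibroblasts and meninges. For astrocytes it was 3 of 8, and for endothelial and mural cells 2 of 3. With Bic/4AP, 7 of 10 neuron markers were below 0 (median -0.06, and -0.20 untreated), against 43.6% of all genes. Of 8 microglial markers 6 were lower, 2 of them 2-fold, against 0.528% of all genes. The difference of the 2 responses, shKdm6b minus vector, was above 0 for 9 of 10 neuron markers (median 0.26). It was above 0 for 6 of 8 astrocyte and 6 of 8 microglial but 2 of 7 oligodendrocyte markers, and below 0 for 54.9% of all genes. The part of these marker differences in those of Atf4 and the other genes was not tested.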

How the data were processed

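RNA of 4 cultures was measured, 1 library per condition. The authors' tables give FPKM per gene with a lower and an upper bound, and CASAVA 1.8, TopHat2 2.0.8b and Cufflinks 2.0.2 were used with build mm9, per the submitters' processing notes. The annotation and the strandedness of counting are not given in the sources used here, and the tables hold no counts. Each deposited table has 22878 rows of 22492 symbols. Rows of 1 symbol were summed, and 42 symbols marked as failed in any library and small RNA genes recognised by symbol were left out. Start positions count from 0 in the tables (the length of 594 of 624 microRNA genes equals end minus start) and are printed counted from 1. A gene was compared at 1 FPKM or more in at least 1 library. Differences are in log2(FPKM + 1), a pseudocount of 1. With 1 library per condition no test was made.

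The members and gene lists were chosen with earlier results of these data known. Named were all members, with their values in all 4 libraries where a difference reached 1 or where they led their class, up to 3 genes of each other list by size, and Kdm6b, Fos, Npas4 and Arc for their role. Lists of other cytosolic chaperones, TRiC, mitochondrial and ER genes, integrated stress response genes and cell type markers were summarised by counts and medians. Promoter windows are from RefSeq (GRCm38.p6). The calculations used Python 3.11.15, pandas 2.3.3 and numpy 2.4.6, and were tested on simulated tables. Alternatives were a pseudocount of 0.1 or 5, no filter or 5 FPKM, 3 scalings, the highest row of a symbol, bounds apart, and, added after the data were seen, Hspa1a and Hspa1b summed.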

Additional observations from a re-analysis of the deposited data

Results flagged for a closer look

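For 5 members the difference between shKdm6b and vector cultures had opposite signs in the untreated and the Bic/4AP state, with the authors' bounds apart in both, as in 1.69% of all genes. With 1 library per condition, whether the 2 states differ was not tested. Hspa1a was 0.32 higher with the hairpin untreated and stood at -0.29 with Bic/4AP, and Hspa1b at 0.30 and -0.19. Ppp1r15a was at 0.20 untreated and -0.17 with Bic/4AP. For Hspa5 the values were 0.079 and -0.073. Eif2ak3 had the reverse order, at -0.21 untreated and 0.18 with Bic/4AP. All values are in log2(FPKM + 1).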

How the results depend on the processing

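Of the class medians, 1 turned its sign: that of ER members for the hairpin with Bic/4AP, near 0 at -0.0082, was 0.016 among genes of at least 5 FPKM. No other class median and no named 2-fold difference changed direction under the alternatives run. Of 197 summary values, 188 moved by less than the authors' bounds allow (or, for a count, by less than 1.5 times), as did 136 of 151 values of single genes, and no single gene lost its 2-fold call. Only genes that were 2-fold apart in the main setting were followed singly, so a gained call shows only in the counts. At a pseudocount of 0.1, 10 members were 2-fold higher with Bic/4AP in vector and 9 in shKdm6b cultures, where the main setting gave 9 and 8. Hspb1 (0.94) and Dnajb9 (0.93) in shKdm6b cultures, just under the limit, were not followed. Median-ratio scaling, which shifted the median of all genes by at most 0.08, gave cytosolic medians of 0.49 and 0.35 for Bic/4AP in vector and shKdm6b cultures, a median of 0.94 for the integrated stress response in vector cultures, and ER medians of 0.26 for Bic/4AP in shKdm6b cultures and -0.047 for the hairpin with Bic/4AP. The cytosolic median in shKdm6b cultures was 0.29 with upper-quartile and 0.22 with common-sum scaling. The integrated stress response median was 1.19 in shKdm6b cultures at a pseudocount of 0.1 and 0.73 in vector cultures at 5, and its order between the 2 kinds of culture turned at 0.1 and among genes of at least 5 FPKM. No replicate could be left out and no paired analysis was possible because each condition has 1 library. Depth limits the low genes most: the upper bound of Trib3 lay up to 24.8% above its value.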
